A study of Drosophila melanogaster with 12 samples.

Results

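The transcript response to X-rays was measured in Drosophila melanogaster embryos at stages 9 to 11, a window that the sample titles call sensitive. The measurements come from 6 of the 12 arrays of the series, 3 of X-ray treated embryos collected 15 to 20 minutes after treatment and 3 of control embryos, each group numbered 1 to 3 in the titles. All embryos came from the C-S strain, no label gives a mutation or transgene, and neither labels nor files state the X-ray dose. The other 6 arrays hold X-ray treated and control embryos at stages 13 to 15, the window called resistant, and they entered the model only to share an estimate of the spread and to test whether the response differed between windows. Total RNA of whole embryos was measured, so a change in the number of cells of a type and a change of RNA per cell cannot be told apart. Whether the samples of a group are separate embryo collections is not labelled, so a p-value here reflects only how these samples spread, which may be technical.

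The members are all probe sets except the array controls, 13966 of 14010. A probe set is a group of short probes on the array that together measure 1 transcript or a set of related transcripts. Of these, 10139 had an intensity above 29.9 on at least 3 of the 12 arrays and were tested, and the other 3827 were too weak. Names could be given to 133 probe sets, of which 109 (107 genes) were tested. The files do not pair the other 13833 with gene names, and 4 of them are given by identifier.

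Ionizing radiation breaks DNA. In flies the kinases that sense the breaks act through the checkpoint kinase Chk2 and the transcription factor p53, which switches on the inhibitor-of-apoptosis antagonists (such as reaper and hid, whose proteins release caspases from inhibition) and repair genes. In the embryo this transcriptional response is known to depend on developmental age and to be largely lost later in embryogenesis. None of the genes listed for apoptosis or for the DNA damage checkpoint and repair was among the named probe sets, so those genes were not analysed by name here. Nor was any gene on the 7 lists of markers of neurons, glia, muscle, germ cells, hemocytes, epidermis or fat body and gut, so the makeup of the embryos was not checked by cell type.

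The 6 arrays ranked the tested probe sets alike. Spearman correlations across probe sets ran from 0.845 to 0.938 between an X-ray and a control array and from 0.847 to 0.905 within a group. The arrays numbered 3 stood apart in both groups. Their brightest probe sets read 12532 in X-ray treated and 11276 in control embryos, against 22039 and 23772 on the other X-ray arrays and 20207 and 22375 on the other control arrays. The 5′ over 3′ signal of the eIF-4a control probe sets, which falls when RNA is degraded or labelled short, was 0.198 on the X-ray and 0.140 on the control array numbered 3, and at most 0.0525 on the other X-ray and 0.0798 on the other control arrays. For GAPDH this ratio was 1.07 on the X-ray and 0.513 on the control array numbered 3. On numbers 1 and 2 it was 0.207 and 0.175 (X-ray) against 0.340 and 0.257 (control). For actin it was 0.447 on the X-ray and 0.458 on the control array numbered 3, and 0.160 to 0.226 on the others. The GAPDH ratio thus also differed between treatments within each number. Each number holds 1 X-ray and 1 control array, so differences within a number are given beside the results.

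Few transcripts passed the threshold. This does not show that few differed, since the whole 95% interval lay within a 2-fold change for only 54.5% of tested probe sets. Limma, a linear model, was fitted across all tested probe sets on 12 arrays, without the replicate number. In this fit 2 of 10139 (0.0197%) passed an adjusted p of 0.05, 1 higher and 1 lower after X-rays (0.00986% each). At an unadjusted p under 0.05 there were 312 (3.08%), against 507 if p-values were uniform. A limma fit of the 6 arrays alone that compares them within numbers gave 10 and 651 (6.42%). The median absolute log2 difference was 0.19, and 148 probe sets (1.46%) had an estimate of at least 2-fold, 77 of them higher (0.759%) and 71 lower (0.7%). Positive differences made up 51.1% of all tested, 41.9% under median scaling and 48.5% under quantile normalization, so neither direction can be called the more frequent. All log2 differences here are of log2(intensity + 13.3), which understates the change of weak probe sets.

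153035_AT had the clearest rise. It read 614.7, 607.7 and 729.6 in X-ray treated embryos numbered 1 to 3, against 138.9, 152.5 and 174.2 in controls. The lowest X-ray value was above 3 times the highest control value, and the groups did not overlap. The log2 difference was 1.98 ± 0.27 (SE, 95% interval 1.41 to 2.55, limma adjusted p = 0.0108), or 3.94-fold. At stages 13 to 15 the same probe set read 30.2, 30.0 and 72.7 in X-ray treated embryos and 98.9, 115.9 and 67.5 in controls, where the groups overlapped and the limma adjusted p was 0.925.

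143680_AT was the next higher probe set by p. It read 287.2, 373.1 and 483.0 in X-ray treated embryos, against 85.1, 91.2 and 126.1 in controls. The groups did not overlap, and the difference was positive within all 3 numbers, but its log2 difference of 1.78 ± 0.29 (SE) did not pass in the model without the replicate number (adjusted p = 0.0662). It passed with the number as a block, with an adjusted p of 0.0354 on 12 arrays and 0.00105 on the 6 arrays alone.

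143796_AT fell. It read 24.0, 22.5 and 13.5 in X-ray treated embryos, against 231.8, 234.5 and 84.0 in controls. Every X-ray value lay below the filter value of 29.9 and every control value above it, and the log2 difference was −2.46 ± 0.33 (SE, 95% interval −3.16 to −1.75, limma adjusted p = 0.0108). With X-ray values this low the estimate moved with the pseudocount, to −2.89 at 0.25 times and to −1.62 at 4 times the chosen one, and it passed at either. The control array numbered 3 read well below the other controls, and the difference within that number, −1.86, was smaller than those within numbers 1 and 2, −2.72 and −2.79. At stages 13 to 15 the probe set read 304.1, 312.0 and 221.3 in X-ray treated embryos and 170.7, 224.8 and 128.1 in controls.

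150670_I_AT had the next smallest p among lower probe sets. It read 78.3, 46.4 and 28.8 in X-ray treated embryos, against 183.8, 145.0 and 137.0 in controls. The groups did not overlap, but the log2 difference of −1.45 ± 0.29 (SE) did not pass (limma adjusted p = 0.390), and it did not pass with the number as a block either (0.118 on 12 arrays, 0.0911 on the 6 arrays alone).

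**Figure D1:**
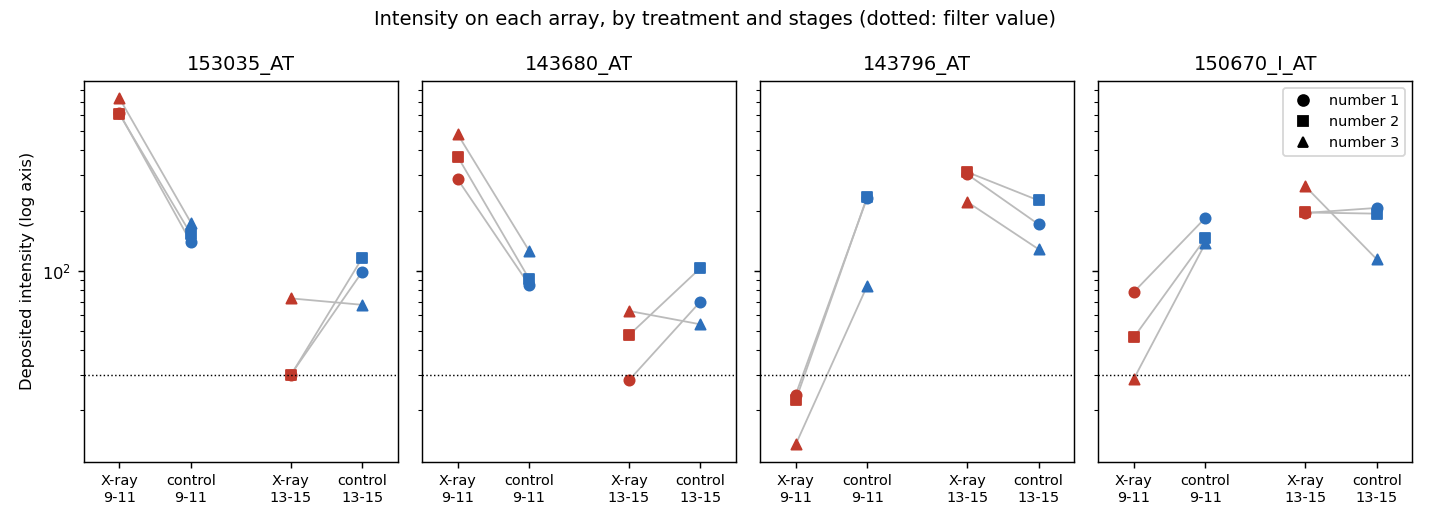
Intensity (log axis) of 4 probe sets on each of the 12 arrays, X-ray treated embryos in red and controls in blue, with lines joining arrays of the same number and a dotted line at the filter value of 29.9. At stages 9 to 11 the X-ray and control values do not overlap in any panel. At stages 13 to 15 the groups of 153035_AT overlap, with 30.2, 30.0 and 72.7 after X-rays and 98.9, 115.9 and 67.5 in controls.

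The size of both called differences held when arrays were left out, while the calls did not. None of the 10139 probe sets passed in limma when any X-ray array of stages 9 to 11, or control 1 or control 2 of these stages, was left out, with the smallest adjusted p between 0.0543 and 0.134. In these 5 fits the log2 difference was 1.90 to 2.02 for 153035_AT and −2.55 to −2.23 for 143796_AT. On the 6 arrays of these stages alone, without the number in the limma model, 1 probe set passed (0.00986%). It was 153035_AT (adjusted p = 0.00237), and 143796_AT did not pass (0.320).

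How small a change could be seen depended on the intensity. Among the 2535 weakest tested probe sets (means over the 6 arrays up to 36.1), the median absolute log2 difference was 0.31, and among the 2535 brightest (means from 167) it was 0.11. The median half-width of the 95% interval was 0.98 in the weakest and 0.46 in the brightest. The whole interval lay within a 2-fold change for 5528 of the 10139 probe sets (54.5%), for 13.4% of the weakest and for 92.7% of the brightest. For 9960 (98.2%) it lay within a 4-fold change.

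**Figure D2:**
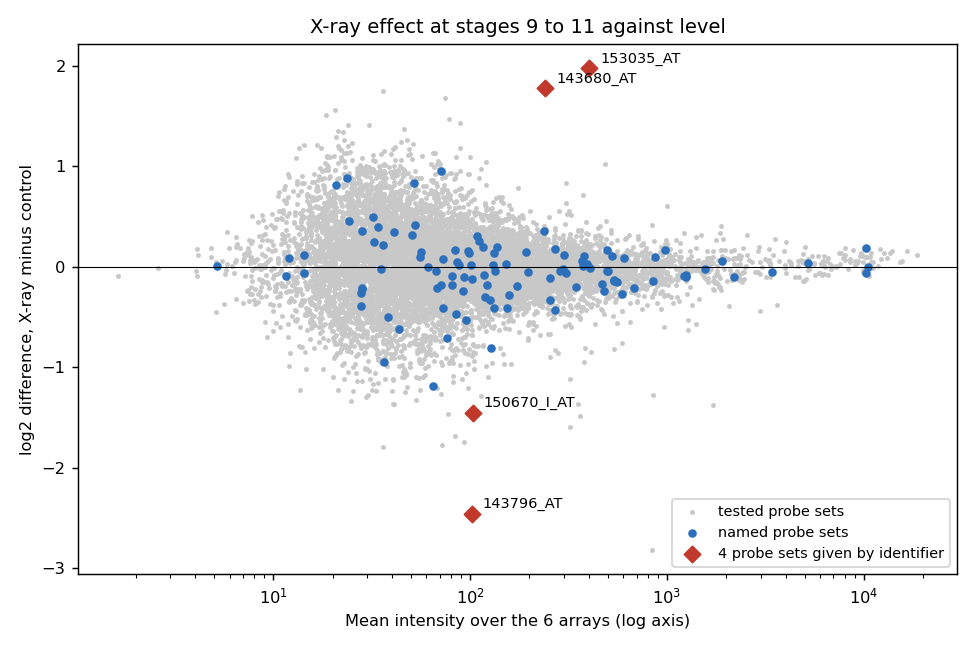
Log2 difference of X-ray treated minus control embryos at stages 9 to 11 against the mean intensity over the 6 arrays (log axis), for all tested probe sets (grey), the 109 named ones (blue) and the 4 given by identifier (red). Differences spread widely at low intensity and narrow towards high intensity. No named probe set lies beyond the range of −1.19 to 0.96.

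The differences within replicate numbers correlated little, which cannot show whether small differences were shared. Across the 10139 probe sets (genes are not independent replicates) the log2 differences of numbers 1 and 2 correlated at r = 0.0898 (Pearson) and rho = 0.101 (Spearman). Those of numbers 1 and 3 correlated at r = 0.0197 and rho = 0.0149, and those of numbers 2 and 3 at r = 0.0259 and rho = 0.0139. These pairs share no array. The differences of number 3 were also narrower, with an SD of 0.47 against 0.62 in number 1 and 0.67 in number 2.

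A difference of the same sign in all 3 numbers was seen for 2753 probe sets (27.2%), 1468 higher (14.5%) and 1285 lower (12.7%). At least 2-fold in all 3 numbers was reached by 17 (0.168%), 6 higher (0.0592%) and 11 lower (0.108%), and at least 1.5-fold by 115 (1.13%). The intensities of the groups did not overlap for 724 probe sets (7.14%), 414 higher (4.08%) and 310 lower (3.06%) after X-rays. If X-ray and control labels were interchangeable, 3 against 3 arrays would not overlap with a probability of 0.1, above the share seen. So a lack of overlap marks no response by itself, and 1 sign in all 3 numbers also arises often without an effect.

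When the 6 arrays were compared within numbers, by a model of these arrays alone with the replicate number as a block, 10 probe sets passed an adjusted p of 0.05 in limma (0.0986%), 2 higher (0.0197%) and 8 lower (0.0789%). This fit has only 2 residual degrees of freedom, with 8.41 borrowed from other probe sets. Of the 10, 2 also passed on 12 arrays without the number and 3 on 12 arrays with it as a block. The higher ones were 153035_AT (adjusted p = 0.000124) and 143680_AT. The 8 lower ones included 143796_AT (adjusted p = 0.00969), had log2 differences of −0.84 to −2.82 (1.79-fold to 7.05-fold) and had control means of 183 to 2395. Of these, 5 fell at least 2-fold within all 3 numbers and all 8 at least 1.5-fold. Of all tested probe sets, 11 (0.108%) fell at least 2-fold in all 3, and 115 (1.13%) changed at least 1.5-fold in either direction. The 8 were chosen on these same differences, so the size and shared sign of their falls are no separate support.

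The 8 lower probe sets varied strongly with the number. In all 8, both the X-ray and the control array numbered 3 read lowest in their group, a pattern that 18.8% of all tested probe sets had. Their X-ray value on number 3 was 0.0636 to 0.581 of the mean of the other X-ray arrays, and their control value on number 3 was 0.262 to 0.417 of the mean of the other controls. The groups did not overlap for 2 of the 8 and overlapped for the other 6. At stages 13 to 15 the arrays numbered 3 read lowest in both groups for 4 of them, the X-ray minus control difference was −0.04 to 0.66 on the log2 scale, and none passed. Their means in control embryos of stages 13 to 15 were 0.951 to 1.89 times those of stages 9 to 11. The part of array number, RNA integrity or developmental age in these differences was not tested.

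**Figure D3:**
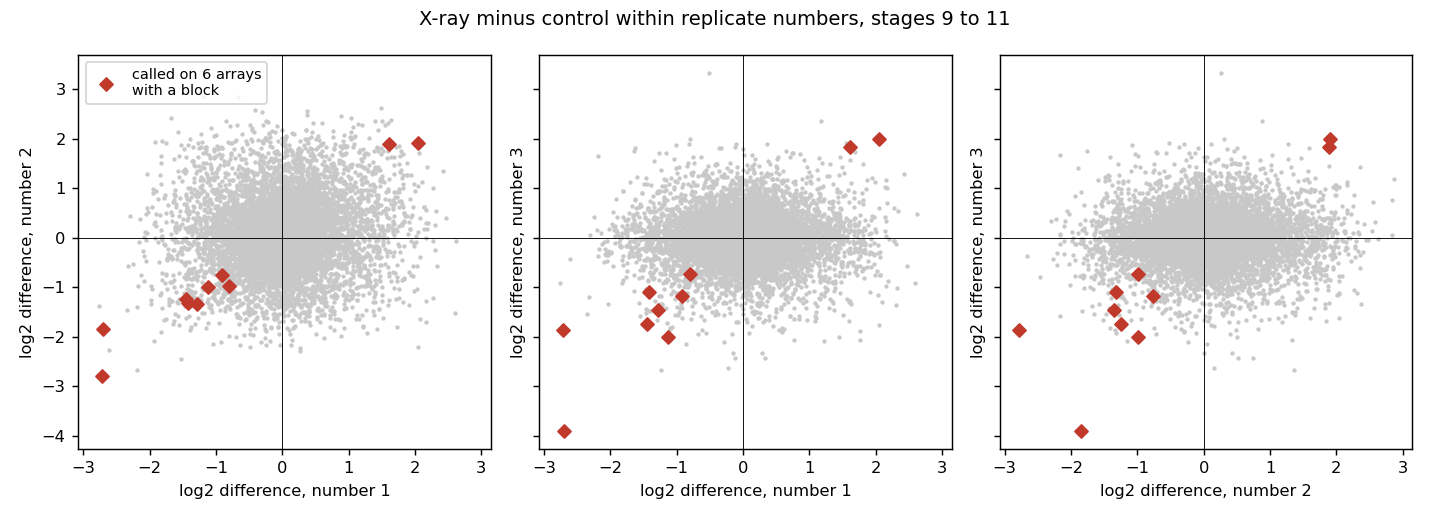
Log2 difference of X-ray treated minus control embryos at stages 9 to 11 within one replicate number against that within another, for all tested probe sets (grey) and the 10 called on the 6 arrays with the number as a block (red). The grey clouds show almost no slope (r = 0.0898, 0.0197 and 0.0259), and the 10, chosen on these same differences, are marked to show their sizes (2 higher, 8 lower).

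The number of calls from the 6 arrays depended on which pair of arrays was left out. It was 9 without number 2, 10 without number 3 and 36 without number 1, and 9, 8 and 10 of the 10 were among them. These fits have 1 residual degree of freedom and lean on the spread borrowed from other probe sets. Their smallest limma adjusted p ran from 4.33e-45 without number 1 to 0.00729 without number 3. With so little spread to estimate, these counts cannot show how firm the 10 calls are. The same model on the 6 arrays of stages 13 to 15 called 0 probe sets in limma (781, or 7.7%, at an unadjusted p under 0.05). At stages 9 to 11 it gave 651 at an unadjusted p under 0.05 (6.42%). The model of 12 arrays with the number as a block gives each number 1 effect common to both windows, which was not checked. It gave 500 at an unadjusted p under 0.05 (4.93%), and 3 probe sets (0.0296%) passed the adjusted threshold, 153035_AT, 143680_AT and 143796_AT.

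**Figure D4:**
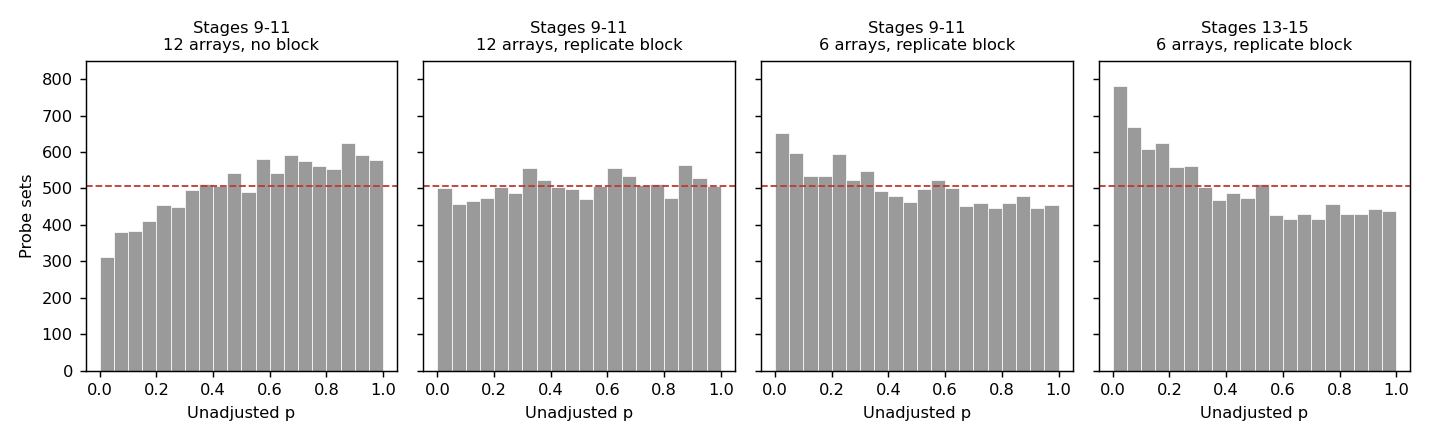
Number of probe sets by unadjusted p in steps of 0.05, for the X-ray effect at stages 9 to 11 under 3 models and at stages 13 to 15 under the last of them; the dashed line marks the 507 expected if p-values were uniform. The lowest step holds 312, 500, 651 and 781 probe sets from left to right.

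Among the named genes no change passed. Of 109 tested named probe sets, 0 had a limma adjusted p under 0.05 (0.0197% of all tested probe sets did), and 6 had an unadjusted p under 0.05 (5.50%, against 3.08% of all tested probe sets). This held with the number as a block, on 12 arrays and on the 6 alone (smallest adjusted p of a named gene 0.785 and 0.677). The groups did not overlap for 9 named probe sets (8.26%, against 7.14% of all tested), 6 higher and 3 lower. The median log2 difference of the named probe sets was −0.04 and that of all tested probe sets 0.01. None was at least 1.5-fold changed within all 3 numbers, against 1.13% of all tested.

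Of the named genes higher after X-rays, those with the smallest p had weak signals. CG6415, a predicted aminomethyltransferase of the mitochondrial glycine cleavage system, read 96.3, 72.4 and 120.6 in X-ray treated embryos, against 21.1, 57.8 and 57.2 in controls. The groups did not overlap, and the log2 difference of 0.96 ± 0.30 (SE, limma adjusted p = 1.00) was largest within number 1 (1.67), whose control was the lowest. ninaE, which encodes the major opsin of photoreceptors, read 65.0, 63.7 and 76.9 in X-ray treated embryos, against 15.7, 46.9 and 41.8 in controls (log2 difference 0.83, 95% interval 0.07 to 1.60, limma adjusted p = 1.00). Its lowest value was again the control numbered 1. CG15203 read 29.7, 41.2 and 19.9 in X-ray treated embryos, against 4.4, 17.5 and 12.7 in controls, with all values but 1 under the filter value of 29.9.

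stc was brighter and also without overlap. It encodes shuttle craft, a zinc finger protein of the NFX1 family with a role in motor neuron development. It read 242.2, 289.9 and 271.3 in X-ray treated embryos, against 199.6, 196.0 and 223.0 in controls, a log2 difference of 0.36 ± 0.17 (SE, limma adjusted p = 1.00). Pdp, a pyruvate dehydrogenase phosphatase, read 130.3, 122.2 and 113.7 in X-ray treated embryos, against 106.5, 105.4 and 87.5 in controls, also without overlap (log2 difference 0.26, 95% interval −0.22 to 0.75).

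The other positive differences with the smallest p did overlap between the groups. They were 0.50 for v (vermilion, the tryptophan dioxygenase of eye pigment synthesis), 0.89 for CG8219, 0.41 for Gart (a purine synthesis enzyme), 0.35 for CG31075 and 0.20 for PTPMT1 (a mitochondrial phosphatase). That of CG8219 came with values of 4.2, 72.7 and 34.9 in X-ray treated embryos and 5.4, 21.1 and 4.6 in controls, so its size rests on signal near the filter value.

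CG1620 had the lowest log2 difference of the named genes, −1.19 ± 0.42 (SE, limma adjusted p = 1.00). It read 16.0, 31.2 and 63.1 in X-ray treated embryos, against 102.5, 93.3 and 81.9 in controls, without overlap. The X-ray values spread far more than the control values. Jheh1, a juvenile hormone epoxide hydrolase, read 11.7, 9.1 and 48.4 in X-ray treated embryos, against 42.4, 66.4 and 41.9 in controls, where the X-ray array numbered 3 lay among the controls. CG17896 (−0.71) and CG4293 (−0.81) also overlapped between the groups.

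Among brighter transcripts, Prosalpha6 and VhaSFD were lower after X-rays without overlap, though neither passed. Prosalpha6, an alpha subunit of the 20S proteasome, read 631.5, 606.5 and 651.5 in X-ray treated embryos, against 687.9, 736.8 and 775.9 in controls (log2 difference −0.21, 95% interval −0.53 to 0.10). VhaSFD, a subunit of the vacuolar proton pump, read 174.8, 262.6 and 237.3 in X-ray treated embryos, against 264.6, 318.8 and 264.9 in controls (−0.33, 95% interval −0.82 to 0.16). The lower differences of Lsd-2 (a lipid droplet perilipin, −0.41), Nmt (N-myristoyltransferase, −0.27) and Prx6a (a peroxiredoxin, −0.30) came with overlap.

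Genes were also grouped by function. Of 16 lists, 14 had at least 1 tested named gene, 33 in all. None of the 33 passed in either direction, 14 differences were positive and 19 negative, and 2 of them, Shmt and Strn-Mlck, read at or below the filter value on all 6 arrays, so that their intervals bound no change at these stages. Of the other 31, the whole 95% interval lay within 2-fold for 27, against 55.3% of all tested probe sets above the filter value on at least 1 of the 6 arrays. Counts of positive and negative members here depend on the scaling, since median scaling moved the median log2 difference of all probe sets to −0.05.

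Genes of DNA replication and the cell cycle showed small differences. RPA2, a subunit of the complex that coats single-stranded DNA, read 322.9, 356.3 and 449.6 in X-ray treated embryos, against 304.6, 406.7 and 369.5 in controls. Its groups overlapped, and its 95% interval was −0.36 to 0.47 on the log2 scale. Rca1, an inhibitor of the anaphase-promoting complex, differed by 0.18 and CycH, the cyclin partner of Cdk7, by −0.05, both with intervals within 2-fold. In the list, 0 of 3 passed, with a median log2 difference of 0.06 against 0.01 over all tested probe sets.

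Genes of DNA damage tolerance and clamp loading were grouped once the names were known. RfC4, a subunit of the replication factor C clamp loader, read 324.8, 309.3 and 304.2 in X-ray treated embryos, against 278.2, 301.6 and 281.8 in controls. Its groups did not overlap, but the log2 difference was only 0.12 (95% interval −0.37 to 0.61). pic, the fly DDB1 protein that recognizes UV damage with DDB2 in mammals, read 1161, 1143 and 778.6 in X-ray treated embryos, against 1250, 894.9 and 646.6 in controls, with the arrays numbered 3 lowest in both groups and the groups overlapping. PolZ1, the catalytic subunit of the translesion polymerase zeta, differed by −0.18 with an interval of −1.09 to 0.72, which reaches past a 2-fold fall. In this group 0 of 3 passed.

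Stress-linked genes were few. The chaperone gene Hsp83 read 690.1, 823.8 and 873.5 in X-ray treated embryos, against 707.8, 789.6 and 1194 in controls, a log2 difference of −0.14 (95% interval −0.58 to 0.30), and 0 of 1 tested gene of its list passed. POSH, a scaffold of the JNK kinase pathway, differed by −0.04 with an interval of −0.98 to 0.90, just inside 2-fold either way. Mkk4, a kinase that activates JNK, differed by 0.14 (95% interval −0.43 to 0.70). Thor, the translation repressor 4E-BP, read 240.0, 372.7 and 352.6 in X-ray treated embryos, against 347.0, 399.1 and 353.5 in controls, with overlap between the groups (log2 difference −0.20, 95% interval −0.72 to 0.32). Mkk4 and Thor were grouped once the names were known.

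The immune list held 3 tested antimicrobial peptide genes. DptB read 104.2, 92.1 and 67.7 in X-ray treated embryos, against 86.8, 84.5 and 79.2 in controls. The groups overlapped. Dro read 8.2 to 56.0 in X-ray treated and 11.8 to 61.3 in control embryos, DptA read above 29.9 on 1 of the 6 arrays, and the intervals of both reached beyond 2-fold in both directions. None of the 3 passed, and the list's median was −0.03. Def and PGRP-SB1 were not tested.

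All 5 proteasome subunit genes had intervals within 2-fold, 4 with negative differences and 1, the lid subunit gene Rpn7, with a positive one (0.17). Prosbeta7, a beta subunit gene of the 20S core, read 1188, 1286 and 1148 in X-ray treated embryos, against 1341, 1354 and 1196 in controls, lower within all 3 numbers by little (95% interval −0.40 to 0.20). Prosalpha2 differed by −0.08 and Prosalpha5 by −0.04. Their median was −0.08.

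RpL23A, RpL32 and RpS5b, cytosolic ribosomal protein genes, had 0 of 3 past the threshold and a median of 0.00. RpS5b read 12290, 13477 and 7196 in X-ray treated embryos, against 10551, 11266 and 6765 in controls, higher within all 3 numbers, and its values on the arrays numbered 3 were far below the others in both groups. The mitochondrial ribosomal protein gene mRpS16 differed by −0.15. Of the translation factor genes, eIF3d1 differed by 0.06 and eEF1beta by 0.03.

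Of the RNA polymerase and Mediator list, 0 of 4 passed and all had intervals within 2-fold. TfIIFalpha, the large subunit of the initiation factor TFIIF, had the largest difference, −0.24, from values of 304.0, 594.9 and 427.9 in X-ray treated embryos and 460.6, 448.9 and 620.5 in controls that overlapped widely. Polr2C of RNA polymerase II differed by 0.15, Polr1A of RNA polymerase I by 0.11 and MED22 by 0.01.

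In the list of mitochondrial amino acid and one-carbon enzymes, 0 of 5 passed. Apart from CG6415 and Shmt, the differences were 0.21 for Oat (ornithine aminotransferase), −0.10 for Nmdmc (a folate enzyme) and −0.41 for Got2 (aspartate aminotransferase). Got2 read 142.2, 173.0 and 36.9 in X-ray treated embryos, against 225.2, 117.4 and 95.3 in controls, so the sign differed between numbers. Aldh, an aldehyde dehydrogenase that entered the central carbon list by the spelling of its symbol, differed by −0.18. Shmt (serine hydroxymethyltransferase) read at most 17.4 on any of the 6 arrays and was tested through the arrays of stages 13 to 15.

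Patterning, chromatin and cytoskeleton genes were represented by 5 tested genes, of which 0 passed. The segment polarity gene en (engrailed) read 185.5, 216.9 and 282.0 in X-ray treated embryos, against 352.8, 310.3 and 266.3 in controls. It was lower in numbers 1 and 2 but not in number 3, with a log2 difference of −0.43 ± 0.25 (SE, 95% interval −0.96 to 0.10). With the number as a block on the 6 arrays the interval of en was −0.83 to −0.03, without passing (limma adjusted p = 0.774). Caf1-55, a histone-binding subunit of several chromatin complexes, differed by −0.09. The tubulin gene betaTub60D differed by 0.16 and the actin gene Act79B by 0.03. The myosin light chain kinase gene Strn-Mlck read at most 6.7 on the 6 arrays, under the pseudocount of 13.3, and was tested through the arrays of stages 13 to 15, so its values say nothing about X-rays at stages 9 to 11.

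**Figure D5:**
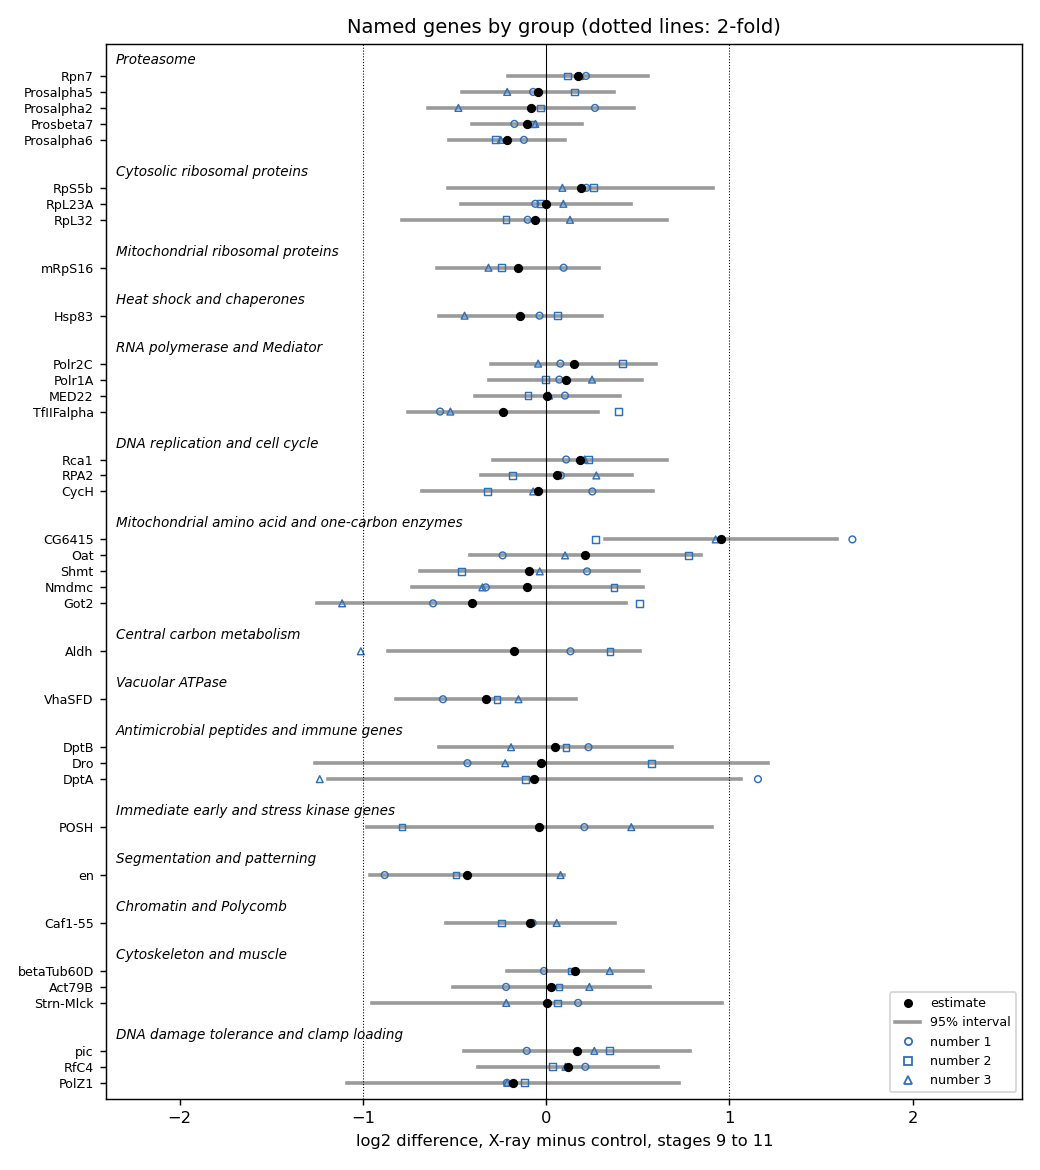
Log2 difference of X-ray treated minus control embryos at stages 9 to 11 for the 33 tested members of the functional lists and for the 3 genes of DNA damage tolerance and clamp loading, with the estimate (black), its 95% interval (grey) and the difference within each replicate number (blue symbols). Dotted lines mark 2-fold. Only the interval of CG6415 (0.32 to 1.59) leaves out 0, and that gene did not pass the adjusted threshold.

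With the genes of DNA damage tolerance, 7 groups were formed once the names were known, holding 36 tested probe sets. None of the 36 passed, and 18 differences were positive and 18 negative. Kinases, receptors and adaptors (0 of 7 passed) ranged from −0.17 for the cGMP-dependent kinase gene for to 0.24 for the protein kinase D gene PKD, and the JAK/STAT receptor gene dome differed by 0.11. Transcription and RNA factors (0 of 10 probe sets passed) ranged from −0.62 for 1 probe set of bon, a TIF1-family cofactor, to 0.36 for stc and for lilli. The other probe set of bon differed by 0.02, and the intervals of the 2 probe sets (−2.03 to 0.79 and −1.02 to 1.05) overlapped. The splicing factor gene SF2 read 2026, 2498 and 1835 in X-ray treated embryos, against 2284, 2661 and 1880 in controls, lower within all 3 numbers by a small amount (−0.10). Carbon and mitochondrial enzymes (0 of 7 passed) ranged from −0.28 for Ogdh, a subunit of the 2-oxoglutarate dehydrogenase complex, to 0.26 for Pdp. Purine and NAD synthesis genes (0 of 3 passed) had a median of −0.04.

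A further 24 named probe sets were not tested because of low signal. Their means were 2.73 to 18.5 in X-ray treated and 2.90 to 18.0 in control embryos. Among them were the chaperone genes Hsc70-1 and Hsp60B, the cytochrome P450 genes Cyp6a2 and Cyp4g15 and the iron carrier gene Tsf1.

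The response was set against that at stages 13 to 15 by testing the difference between the X-ray effects. In limma 2 of 10139 (0.0197%) passed, 1 higher and 1 lower (0.00986% each), and 460 (4.54%) had an unadjusted p under 0.05. These 2 are the pair that passed at stages 9 to 11. The effect on 153035_AT was higher at stages 9 to 11 by 2.93 ± 0.38 on the log2 scale (SE, limma adjusted p = 0.0123), and that on 143796_AT was lower, with a difference of −3.11 ± 0.47 (SE, limma adjusted p = 0.0380). Since the X-ray values of 143796_AT at stages 9 to 11 are so low, its estimate moved with the pseudocount, to −3.58 at 0.25 times and to −2.17 at 4 times the chosen one, and at the last it no longer passed. Both probe sets had been called with the same arrays of stages 9 to 11, so this is no separate support for their change there. The difference was 2.36 ± 0.41 for 143680_AT (SE, limma adjusted p = 0.129) and −1.80 ± 0.41 for 150670_I_AT (SE, limma adjusted p = 0.514), and no named gene passed (4 of 109 at an unadjusted p under 0.05). With 1 array left out the difference between windows stayed at 2.76 to 3.26 for 153035_AT and at −3.56 to −2.88 for 143796_AT, but neither passed without X-ray or control array 1 or 2 of either window, or without X-ray array 3 of stages 9 to 11.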

How the data were processed

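The members, gene lists and tests were chosen with earlier results of these data known, and the 7 added gene groups after the names were matched. The table holds linear intensities deposited by the authors, 1 value per probe set and array. No label or header names the array software, background correction or normalization. The mean of each array after trimming 2% at each end differed by at most 0.00230% between arrays, under the limit of 5% set for rescaling, so values were used as deposited. Any change shared by all transcripts is removed by such scaling.

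Names came from synonyms in the RefSeq gene table (Release 6 plus ISO1 MT), which matched 133 probe sets to 131 genes, none to several. Values were taken as log2(intensity + 13.3), the 25th percentile of the table, and kept above 29.9, its 40th percentile, on at least 3 of 12 arrays. Tests used limma 3.58.1 in R 4.3.3 (a mean per group for 4 groups, 8 residual degrees of freedom with 7.26 borrowed, trend on mean level, 2-sided, Benjamini-Hochberg over all tested probe sets at 0.05). Array number limits the precision; an exact permutation test of 3 against 3 cannot go below 0.1. Code was tested on simulated data.

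Same-numbered X-ray and control arrays of stages 9 to 11 deviated together from their group means. Across probe sets r was 0.176, 0.130 and 0.421 for numbers 1, 2 and 3. Between X-ray and control arrays of different numbers r ran from −0.283 to 0.128, so only number 3 stood well apart. The number was treated as pairing the samples, and the fit with it as a block stands beside results it changes. That pairing comes from the titles and this check, since the labels do not say what a number marks.

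Named in the text were, by rule, up to 10 named genes in each direction past the threshold or by smallest p, all tested members of each list with up to 4 (otherwise the 4 brightest), and at most 2 unnamed probe sets in each direction by p. Other genes were chosen after their values were seen. Alternatives were other scalings, pseudocounts, filters, moderation, array weights, blocks and left-out arrays. No sequences were used.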

Additional observations from a re-analysis of the deposited data

Results flagged for a closer look

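A limma test of the difference itself set the response at stages 9 to 11 apart from that at stages 13 to 15 for 153035_AT (2.93 on the log2 scale, stages 9 to 11 minus stages 13 to 15, adjusted p = 0.0123) and for 143796_AT (−3.11, adjusted p = 0.0380). For 153035_AT the X-ray minus control difference was 1.98 at stages 9 to 11 and −0.95 at stages 13 to 15. For 143796_AT it was −2.46 and 0.66. At stages 13 to 15 these effects had an SE of 0.27 for 153035_AT and 0.33 for 143796_AT, and neither passed, so no reversal was shown. Under 22 alternatives the difference between windows no longer passed in 10 for 153035_AT and in 16 for 143796_AT.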

How the results depend on the processing

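The count of 2 probe sets for X-rays at stages 9 to 11 was 1 on the 6 arrays alone, 10 on these with a replicate block, 0 without the trend, 9 without the 4 arrays numbered 3 and 0 to 3 with 1 array left out. It was 3 with the replicate block on 12 arrays, where both calls remained and 143680_AT joined them, and 2 or 3 under the other scalings, pseudocounts and filters and with array weights. The block changed no other call at these stages on 12 arrays, and the count of named genes was 0 in all 24 alternatives. The count of 10 from the 6 arrays with a block was 9 to 36 with 1 number left out and 0 on the 6 arrays of stages 13 to 15, settings chosen after seeing the data. The fits with 1 number left out have 1 residual degree of freedom and cannot weigh these calls. The 2 differences between windows became 1 with a stricter or with no filter, with 4 times the pseudocount and with quantile normalization, 0 without the trend, 12 without the arrays numbered 3 and 0 to 3 with 1 array left out, and stayed at 2 with the replicate block. The causes were not tested. Over the 24 alternatives the log2 difference was 1.76 to 2.06 for 153035_AT and −2.90 to −1.62 for 143796_AT. Changing only the filter, the trend, the block or the arrays of stages 13 to 15 cannot move these estimates, so such settings do not challenge their size. Intervals lay within 2-fold for 40.9% to 59.7% of probe sets under the alternatives tried. Weak signal limits what can be bounded.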
